A study of Mus musculus with 8 samples.

Results

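A set of 35 genes for the contractile and cytoskeletal machinery of smooth muscle was examined in the aortas of mice exposed to angiotensin II (Ang II) for 28 days. The members were taken by gene name from the deposited table, and all 35 were found among its 23420 genes. Whole aortas of 8 irradiated ApoE-/- mice had been sequenced one by one as RNA. In 4 of them the blood lineage came from Ntn1-/- ApoE-/- fetal liver cells (Ntn1-/- chimeras, replicates A to D), and in the other 4 from Ntn1+/+ ApoE-/- fetal liver cells (WT chimeras, replicates A to D). Donors and recipients of both groups lacked ApoE, all 8 mice received Ang II, and the labels call the tissue abdominal aortic aneurysm without grading single mice. Only cells of donor origin lacked netrin-1, a guidance protein secreted by macrophages among other cells. The smooth muscle of both groups came from the recipients and carried Ntn1, so the comparison asks whether the genotype of the blood lineage was accompanied by a difference in the smooth muscle genes of the wall.

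Smooth muscle cells make up the media of the aorta. Calcium bound to calmodulin activates myosin light chain kinase, phosphorylated myosin pulls on actin filaments anchored in dense bodies and at adhesion plaques, and myosin phosphatase, under the control of cGMP among other signals, reverses the step. Many of these genes are transcribed under serum response factor (SRF) with its coactivator myocardin (MYOCD), which act at a short promoter element called the CArG box, and injured or dedifferentiating smooth muscle is known to lose them together.

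The CArG box is shown first because it is the best-known sequence linked to these genes. Members were chosen by name, but they include Srf and genes known to be transcribed under SRF. The choice was therefore not independent of the box, and the shares below are a description. RefSeq promoters of build GRCm38.p6, from 250 bases before to 50 bases after each start, were found for 29 of the 35 members. The canonical CArG box was searched on both strands, and 5 members held it (17.2%), against 1.67% of the 10989 tested genes that had a promoter. No promoter sequence was used for Tagln, Myh11, Aoc3, Nexn, Myocd and Actg2. The windows below run 5′ to 3′ on the strand of the gene, with 15 bases on each side of a box in capitals. Each was located in mm9, the build of the deposited data, by an exact match.
Ldb3, chr14:35401878-35401917, minus strand: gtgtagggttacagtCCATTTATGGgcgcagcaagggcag
Myl6, chr10:127930091-127930130, minus strand: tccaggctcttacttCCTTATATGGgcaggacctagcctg
Myl9, chr2:156601024-156601063, plus strand: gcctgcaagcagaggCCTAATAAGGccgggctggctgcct
Srf, distal box, chr17:46693169-46693208, minus strand: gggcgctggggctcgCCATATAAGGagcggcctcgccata
Srf, proximal box, chr17:46693149-46693188, minus strand: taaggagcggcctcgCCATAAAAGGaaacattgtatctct
Vcl, chr14:21748378-21748417, plus strand: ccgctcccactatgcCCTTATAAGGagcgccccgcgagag
All 6 boxes lay upstream of a RefSeq transcription start of their gene, the nearest beginning 35 bases before that of Ldb3 and the farthest 227 bases before that of Vcl. Myl6 has a pair of RefSeq promoters, and its box lies upstream of the start of one of them but inside the gene as annotated in mm9 (chr10:127927916-127930931, minus strand). Srf, which encodes the factor that binds the box, was the member with a pair of them. A match is a description of the letters in this window and was not tested as a binding site, and a member with no match here can hold boxes elsewhere.

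The libraries held 19879329 to 28202931 reads in genes, and the 35 members took 2.958% to 7.153% of them. Read counts had been divided by a size factor per library, and these normalized reads are the level given below. Every member had at least 273 reads in every library, so counting error was small beside the differences between mice. Ntn1 itself, which the recipient cells of both groups kept, was measured at 5273 to 10224 normalized reads in the Ntn1-/- chimeras and 6002 to 9870 in the WT chimeras (log2 difference 0.04, SE 0.24, adjusted p = 0.9591 by limma). It therefore did not separate the groups in whole aorta and does not check the labels. Over all 14931 genes with a mean of at least 10 normalized reads, limma called 0 genes at an adjusted p under 0.05, edgeR called 0, and DESeq2 called 544.

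The levels of the smooth muscle genes spanned a wide range. On a scale per length, as reads per kilobase of exon, scaled to the reads in genes of each library (RPKM), Acta2 (smooth muscle alpha-actin) had a mean level of 6786 over the 8 libraries, with a range of 3837 to 9844. Myl6, the essential myosin light chain, followed at 4366, Tagln (SM22alpha, an actin-binding protein) at 3946 and Myl9, the regulatory light chain, at 2622. The heavy chain Myh11 stood at 544, close to the filament gene Tpm2 at 576, the actin cross-linker Flna at 562 and calponin, Cnn1, at 532. The ranges over libraries of these last 4 genes overlapped broadly, so their order is not firm. At the other end were the kinase gene Prkg1 at 11.2, the adhesion scaffold Sorbs2 at 4.82 and Myocd at 3.94. The RPKM of Myl6 is uncertain, since 27.76% of the 50-nucleotide windows of its transcript are shared exactly with the predicted gene Gm8894. The defining smooth muscle markers Acta2, Myh11, Tagln, Cnn1, Smtn, Lmod1 and Myocd were detected in every library.

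**Figure D1:**
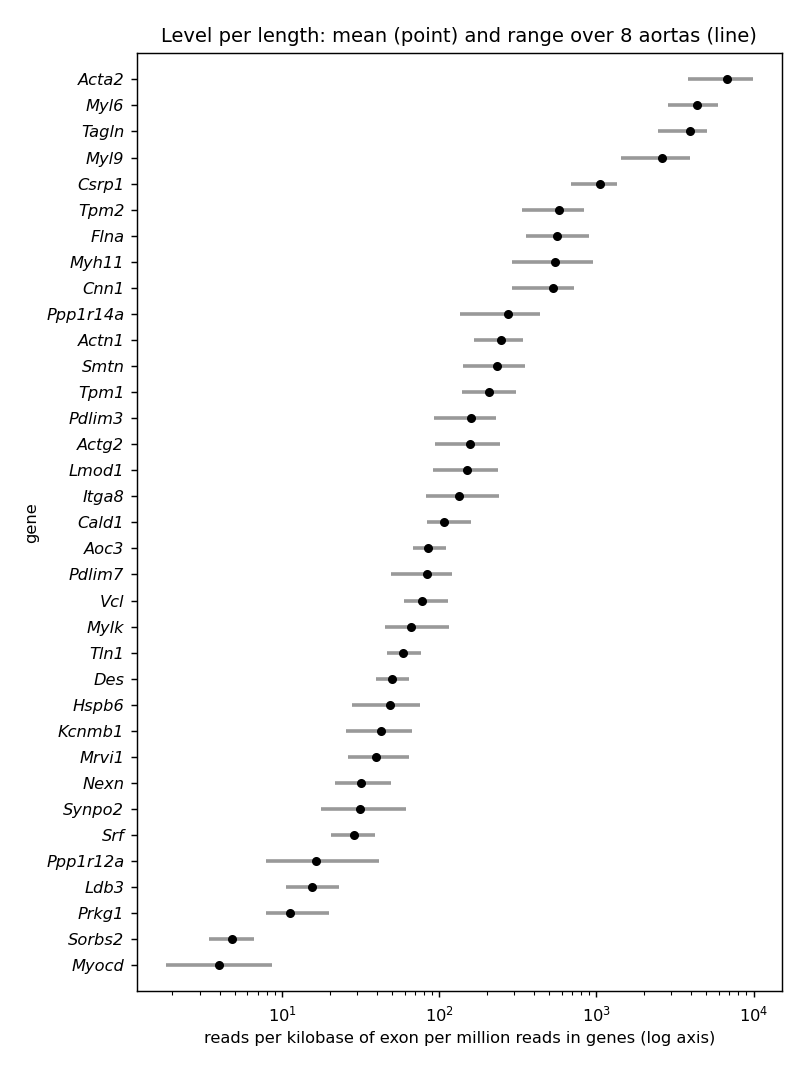
Level of each of the 35 genes in RPKM (log axis), as the mean (point) and range (line) over 8 aortas. Acta2 leads with a mean of 6786 and Myocd is lowest with 3.94.

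No smooth muscle gene was called different between the groups by the test across all genes. Of the 35 members, 18 had a higher and 17 a lower estimate in the Ntn1-/- chimeras, with a median log2 difference of 0.003 beside -0.0147 for all genes tested. The count turned on single aortas: 7 members were higher without Ntn1-/- B, 35 without Ntn1-/- D, 31 without WT A and 11 without WT B. With an offset for the length and GC content of the genes, 12 of the 35 estimates changed sign and 20 were higher. The estimates ran from -0.17 for Hspb6 to 0.58 for Ppp1r12a. limma called 0 of the 35 at an adjusted p under 0.05 (0% of all genes), as did edgeR (0% of all genes) and DESeq2 (3.72% of all genes). At an unadjusted p under 0.05 limma had 0 members, against 15.6% of all genes, and in 0 members did the 4 values of one group lie wholly on one side of the other 4, against 10.5% of all genes. A higher estimate was found in 47.6% of all genes. In RNA from whole aorta, fewer smooth muscle cells and less of these transcripts per cell cannot be told apart. The 95% confidence interval of the log2 difference was wide for Acta2, from -1.13 to 0.84. The narrowest, that of Aoc3, reached from -0.22 to 0.47. Differences within the interval of a gene were not excluded by these data.

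**Figure D2:**
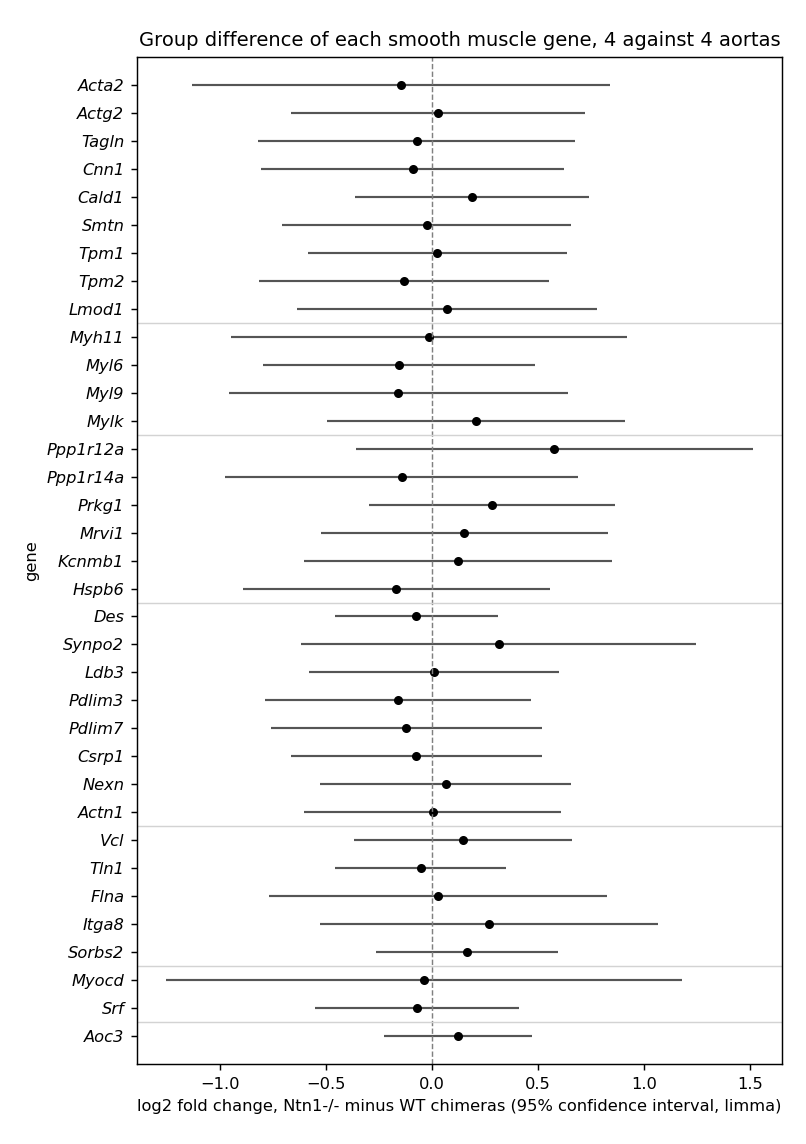
log2 difference (Ntn1-/- minus WT chimeras, 4 against 4 aortas) of each of the 35 genes, with the 95% confidence interval from limma. Every interval crosses 0, and the narrowest belongs to Aoc3 (-0.22 to 0.47).

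Among the 9 thin filament genes, 4 estimates were higher and 5 lower. Acta2 (chr19:34315580-34329826, minus strand, mm9), the actin of vascular smooth muscle, had 290263, 392763, 250356 and 148234 normalized reads in Ntn1-/- chimeras A to D and 381260, 221633, 237651 and 315747 in WT chimeras A to D. Its highest and its lowest value were both found among the Ntn1-/- chimeras, B and D, and the WT values fell between them (log2 difference -0.15, SE 0.43, adjusted p = 0.9009 by limma). Tagln had 175340, 179894, 133144 and 84806 normalized reads in the Ntn1-/- chimeras and 185486, 131916, 123907 and 143426 in the WT chimeras. Here WT A was highest, Ntn1-/- D was again lowest and the groups overlapped (log2 difference -0.07, SE 0.33, adjusted p = 0.9406). Exons of Tagln lie antisense to Pcsk7, and the strand setting of the counting is not given in the sources used here.

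Cnn1, which binds actin and restrains the myosin ATPase, had 35352, 38394, 26537 and 14906 normalized reads in Ntn1-/- A to D and 38679, 22573, 24651 and 32087 in WT A to D. Smtn (smoothelin, a marker of fully contractile smooth muscle) had 26747, 34210, 20758 and 13437 in the Ntn1-/- chimeras and 31020, 19467, 17715 and 25610 in the WT chimeras. Actg2, the gamma-actin typical of visceral smooth muscle, had 5436, 8560, 6066 and 3175 in the Ntn1-/- chimeras and 7452, 4003, 4548 and 6127 in the WT chimeras. In all of these genes Ntn1-/- B and WT A were high and Ntn1-/- D was lowest. Their log2 differences were -0.09 (Cnn1), -0.026 (Smtn) and 0.027 (Actg2). The remaining thin filament genes were Cald1 (caldesmon, 0.19), Tpm1 and Tpm2 (tropomyosins, 0.026 and -0.13) and Lmod1 (leiomodin, which nucleates actin filaments, 0.07), and none passed the test.

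**Figure D3:**
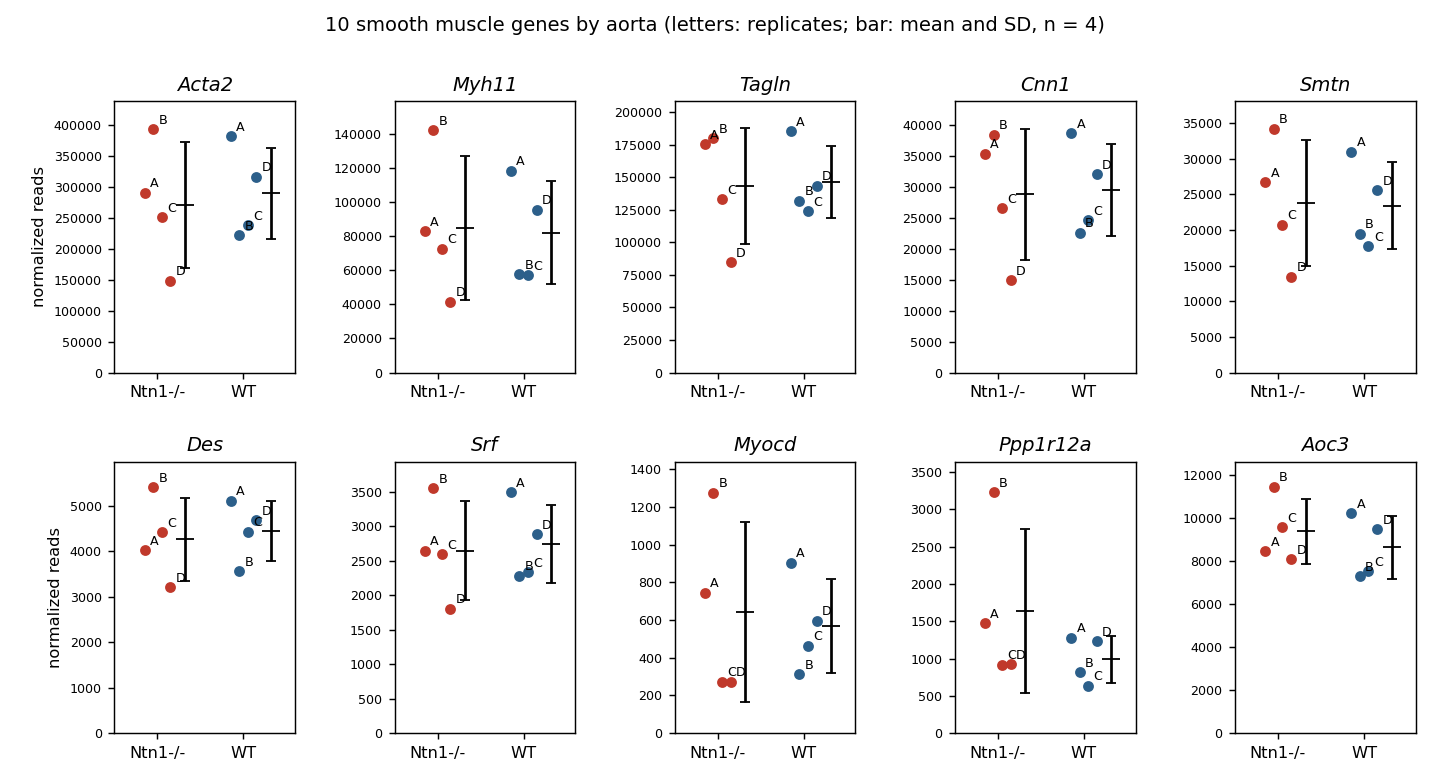
Normalized reads of 10 of the genes in each aorta (letters are replicates), with the mean and SD of each group (bars, n = 4). In each of the 10 genes the values of the groups overlap, and Ntn1-/- B is above Ntn1-/- D.

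Of the 4 genes for myosin and its kinase, 1 estimate was higher and 3 were lower. Myh11 (chr16:14194620-14291501, minus strand, mm9), the heavy chain that defines mature smooth muscle, had 82769, 142174, 72545 and 41550 normalized reads in Ntn1-/- A to D and 118312, 57672, 56909 and 95412 in WT A to D. Values of the Ntn1-/- chimeras thus spanned 3.42-fold from D to B and enclosed every WT value (log2 difference -0.016, SE 0.41, adjusted p = 0.9906 by limma). The light chains Myl6 and Myl9, both with a CArG box in the windows printed above, had log2 differences of -0.16 and -0.16, and Mylk, the kinase that starts contraction, 0.21.

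The 6 genes that act on the phosphatase and on relaxation included the most extreme estimates in both directions. Ppp1r12a encodes MYPT1, the subunit that guides myosin phosphatase to myosin, and was chosen for a closer description after its values were seen. It had 1471, 3228, 920 and 922 normalized reads in Ntn1-/- A to D and 1279, 816, 635 and 1232 in WT A to D. Ntn1-/- B stood alone at the top, and the other 7 ran from 635 to 1471 with the groups overlapping. Its log2 difference of 0.58 (SE 0.41, 95% interval -0.36 to 1.51, adjusted p = 0.5195 by limma) fell to 0.18 when Ntn1-/- B was left out. Prkg1, the cGMP-dependent kinase, had a log2 difference of 0.28, its substrate gene Mrvi1 (IRAG, which dampens calcium release) 0.15, and Kcnmb1, the beta subunit of the large-conductance potassium channel, 0.12. Ppp1r14a (CPI-17, which inhibits the phosphatase) was at -0.14 and Hspb6 (HSP20, a target of cyclic nucleotide kinases) at -0.17. None passed the test.

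Dense body, Z-disc and filament genes were split evenly, with 4 of 8 higher. Des (desmin, the intermediate filament of muscle) had 4019, 5404, 4418 and 3202 normalized reads in Ntn1-/- A to D and 5102, 3564, 4421 and 4680 in WT A to D. The values were close, 1.69-fold from Ntn1-/- D to Ntn1-/- B, and the log2 difference was -0.07 with a 95% interval of -0.46 to 0.31. Ldb3, a PDZ-LIM protein of Z-discs, had 2572, 3104, 1712 and 1372 in the Ntn1-/- chimeras and 2693, 1706, 2147 and 1856 in the WT chimeras. WT C was above WT B and WT D here, unlike in most members, and the groups overlapped (log2 difference 0.0083). Synpo2 (synaptopodin 2, an actin bundler) was at 0.31, its SE of 0.41 among the larger ones, and Nexn (nexilin, an actin-binding protein) at 0.06. The actin cross-linker Actn1 was at 0.003, Csrp1, a LIM protein of the actin cytoskeleton, at -0.07, and the PDZ-LIM genes Pdlim3 and Pdlim7 at -0.16 and -0.12.

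Of the 5 genes that join the filaments to membrane and matrix, 4 had higher estimates, none past the test. Vcl (vinculin) was at a log2 difference of 0.14, Tln1 (talin, the link to integrins) at -0.05, Flna (filamin A) at 0.03, Itga8 (the alpha8 integrin of smooth muscle) at 0.27 and Sorbs2 at 0.16. Exons of Tln1 and Vcl overlap antisense exons of Creb3 and Ap3m1. Antisense exons of other genes also overlap those of Des, Smtn, Hspb6, Itga8, Mrvi1 and Sorbs2. Sorbs2 further overlaps the predicted gene Gm16352 on its own strand. Aoc3, a surface amine oxidase abundant on smooth muscle and fat cells, was at 0.12 (SE 0.15), the most tightly bounded member of all.

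Neither transcription factor was called different between the groups. Myocd (chr11:64990063-65083491, minus strand, mm9) had 745, 1275, 272 and 272 normalized reads in Ntn1-/- A to D and 903, 312, 464 and 595 in WT A to D. Its values in Ntn1-/- C and D were below every WT value while A lay above 3 of the 4 and B above all 4, which gave a log2 difference of -0.04 with the widest interval of all members (-1.25 to 1.18, adjusted p = 0.9846 by limma). Srf had 2644, 3553, 2592 and 1805 in the Ntn1-/- chimeras and 3494, 2285, 2330 and 2883 in the WT chimeras. It was highest in Ntn1-/- B and WT A and lowest in Ntn1-/- D, as most members were, over a smaller span of 1.97-fold (log2 difference -0.07, SE 0.21).

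While no member was called different between the groups, the members varied together from aorta to aorta. Averaged over the 35 genes, the log2 deviation from each gene's own mean was 0.63 in Ntn1-/- B, 0.43 in WT A, 0.20 in Ntn1-/- A, 0.08 in WT D, -0.12 in Ntn1-/- C, -0.29 in WT C, -0.29 in WT B and -0.65 in Ntn1-/- D. Each group thus held high and low libraries, and the sum of the members' normalized reads ran from 641704 in Ntn1-/- D to 1602337 in Ntn1-/- B, a 2.50-fold span. With TMM scaling Ntn1-/- B stood at 0.64 and Ntn1-/- D at -0.64, and with an offset for length and GC content at 0.62 and -0.64, so the contrast between them was as large there.

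**Figure D4:**
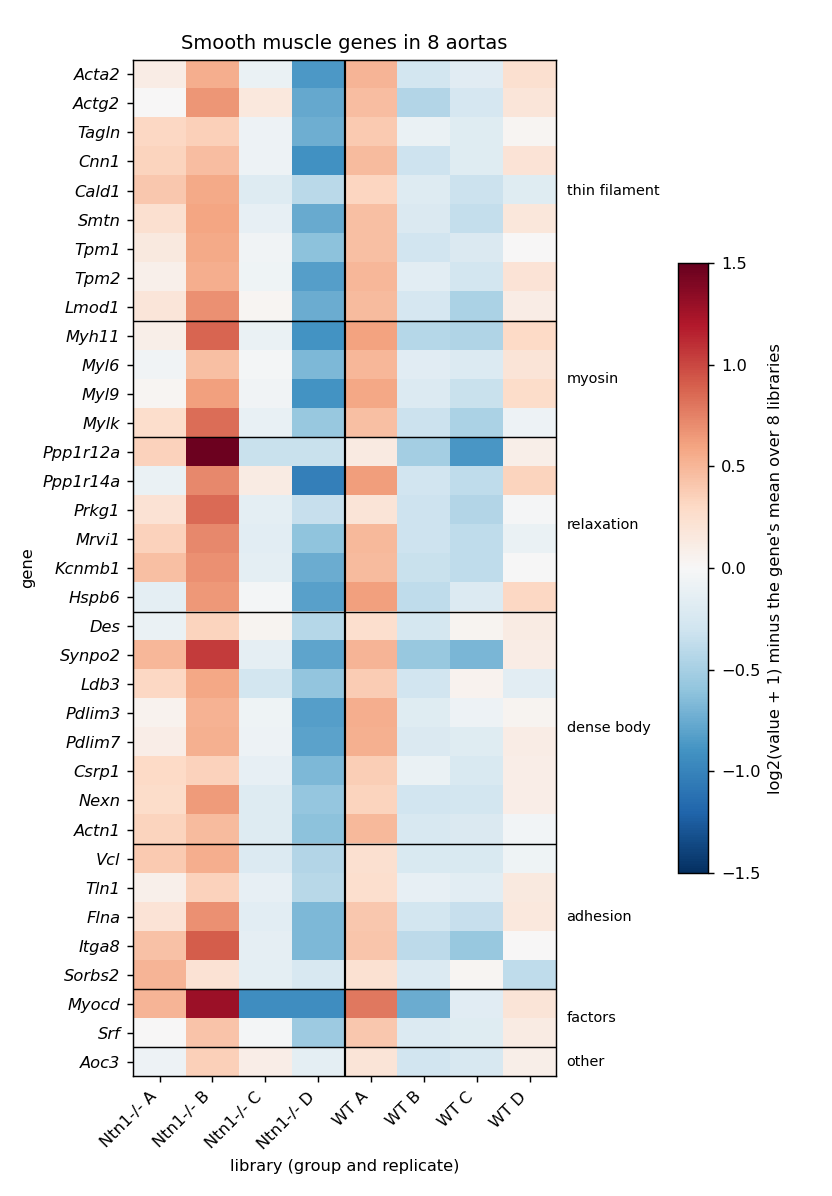
log2(normalized reads + 1) minus the gene's mean over 8 libraries (colour) for the 35 genes (rows, by role) in each aorta (columns). Columns Ntn1-/- B and WT A are high in all 35 genes, and Ntn1-/- D and WT B are below the mean in all 35.

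The pattern was shared by nearly all members. Ntn1-/- B had the highest value of the 8 libraries in 28 of the 35 genes (80.0%, against 21.7% of all genes tested), WT A in 6 and Ntn1-/- A in 1, Sorbs2. Ntn1-/- D had the lowest value in 30 genes (85.7%, against 17.9% of all genes tested). In 26 members (74.3%, against 10.7%) the Ntn1-/- chimeras followed the order B, A, C, D from high to low. In 33 members (94.3%, against 15.2%) WT A was highest, then WT D, then WT B and C. Only Ldb3 and Sorbs2 broke the latter order. In all 35 members Ntn1-/- B and WT A lay above Ntn1-/- D, WT B and WT C, as they did in 25.6% of all genes. These orders were chosen after the values were seen and are descriptions.

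The spread between mice of one group was correspondingly large. The SD of log2 values within a group had a median of 0.472 over the members, from 0.23 for Aoc3 to 0.90 for Myocd, while its median was 0.209 over all genes and 0.155 over the 4678 genes averaging 1000 normalized reads or more. The span from lowest to highest library was 5.08-fold for Ppp1r12a, 4.69-fold for Myocd, 3.58-fold for Synpo2 and 3.42-fold for Myh11. At the other end it was 1.57-fold for Aoc3, 1.69-fold for Des, 1.71-fold for Tln1 and 1.85-fold for Sorbs2.

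Some members left the common pattern in single aortas. Relative to the mean deviation of the 35 genes in the same library, Myocd stood at a log2 of -0.82 in Ntn1-/- C and 0.66 in Ntn1-/- B. Ppp1r12a stood at 0.84 in Ntn1-/- B and -0.58 in WT C. In Ntn1-/- D, the library with the least smooth muscle RNA, Aoc3 (0.51) and Sorbs2 (0.41) stood above the mean of the other members. Sorbs2 was also at 0.305 in Ntn1-/- A, -0.42 in Ntn1-/- B and -0.47 in WT D. In WT C the striated muscle genes Ldb3 (0.34) and Des (0.33), together with Sorbs2 (0.32), stood above the rest. That library also had the highest sum of 14 cardiac muscle markers, 17442 normalized reads. The other 7 ran from 2730 in Ntn1-/- A to 6531 in Ntn1-/- D. The part of heart tissue in the 3 values of WT C was not tested.

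Markers of other cell types varied over the same aortas. The 11 macrophage markers summed to 57859, 30363, 72676 and 118040 normalized reads in Ntn1-/- A to D and to 52270, 109543, 90241 and 98980 in WT A to D. They were lowest in Ntn1-/- B, the library highest in smooth muscle genes, next lowest in WT A, and highest in Ntn1-/- D, the library lowest in smooth muscle genes. All 11 macrophage markers had lower estimates in the Ntn1-/- chimeras, with a median log2 difference of -0.41, and 0 passed the test. The 9 adipocyte markers summed to 223742, 154653, 337163 and 347479 in the Ntn1-/- chimeras and to 192454, 339865, 388638 and 402110 in the WT chimeras, again lowest in Ntn1-/- B and WT A. The 12 fibroblast markers were lowest in Ntn1-/- B (222204) and highest in WT C (433472), and the 10 endothelial markers varied least (22560 to 30269). All 9 adipocyte and 11 of 12 fibroblast markers also had lower estimates (medians -0.28 and -0.33), while 7 endothelial markers had higher ones. Over all genes 47.6% were higher. Of the fibroblast markers, limma had 2 at an unadjusted p under 0.05 (15.6% of all genes). In 2 the groups did not overlap (10.5% of all genes), and DESeq2 called 1 (3.72% of all genes). No macrophage, adipocyte, fibroblast or endothelial marker was at 0 in any library. Their part in the levels of the smooth muscle genes was not tested.

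**Figure D5:**
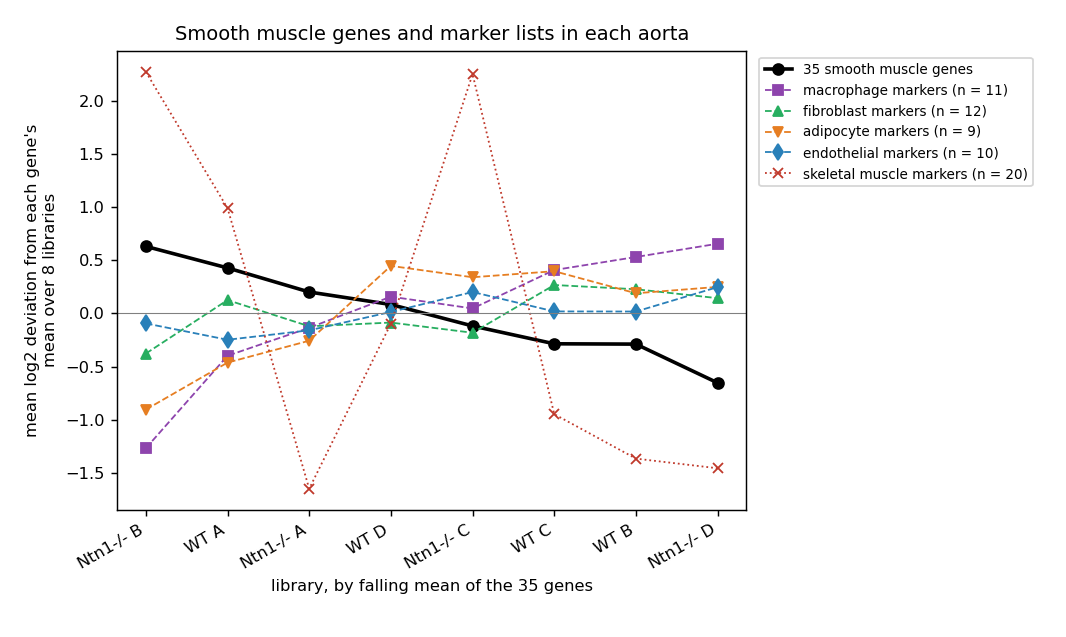
Mean log2 deviation from each gene's mean over 8 libraries, for the 35 smooth muscle genes (black) and 5 marker lists, with the aortas in order of falling smooth muscle level. The black line runs from 0.63 in Ntn1-/- B to -0.65 in Ntn1-/- D, and the macrophage line from -1.27 to 0.66 over the same libraries.

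The sum of the 7 pericyte and mural cell markers was highest in Ntn1-/- B (63507), then in WT A (53852) and Ntn1-/- A (53420), and lowest in Ntn1-/- D (32687). The adhesion molecule gene Mcam, with 12805 to 27780 normalized reads, made up a large part of this sum. Rgs5 was highest in Ntn1-/- B, then in Ntn1-/- A (5870), and lowest in WT C (1983). Its log2 difference of 0.75 was the largest of this list (adjusted p = 0.3316 by limma). Abcc9 was also highest in Ntn1-/- B and lowest in WT C. Cspg4 and Pdgfrb were highest in WT A and lowest in Ntn1-/- D. Higd1b, a pericyte marker, had another order, with 34.2 in Ntn1-/- B, 41.5 in WT A, 78.9 in Ntn1-/- D and 101 in WT C, and Kcnj8, a potassium channel gene of pericytes, ran only from 1255 to 1699.

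Skeletal muscle RNA was unevenly present. Its 20 markers summed to 4017, 16890, 16465 and 2953 normalized reads in Ntn1-/- A to D and to 8446, 3314, 4424 and 4848 in WT A to D. Tcap (1368 to 2146) and Casq1 (320 to 2119) made up a large part of the low sums in Ntn1-/- A, Ntn1-/- D and WT B. Acta1 varied more than the sum, from 40.7 in Ntn1-/- A to 2188 in Ntn1-/- B. Ntn1-/- B and C had the highest sums, and the fast myosin gene Myh4 was at 0 in Ntn1-/- A. Of the 20 markers, 18 had higher estimates in the Ntn1-/- chimeras (47.6% of all genes), with a median log2 difference of 0.73. All 13 cardiac muscle markers tested had lower estimates, with a median of -0.92. limma had 1 of these 13 at an unadjusted p under 0.05 (15.6% of all genes) and called 0 markers of either list. The part of skeletal or cardiac muscle in the levels of the smooth muscle genes was not tested.

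The lists with the largest median differences between the groups were those of neurons and liver. The 10 neuron markers summed to 6456, 14977, 11858 and 5310 normalized reads in Ntn1-/- A to D and to 5909, 5348, 4780 and 5198 in WT A to D. Ntn1-/- B and C had the highest sums. All 10 had higher estimates in the Ntn1-/- chimeras (median log2 difference 1.29), 8 of them at an unadjusted p under 0.05 by limma. limma called 0 and DESeq2 called 7. Over all genes, 47.6% had a higher estimate and 15.6% an unadjusted p under 0.05 by limma, and DESeq2 called 3.72%. The 10 liver markers summed to 9376, 4662, 9451 and 10769 in the Ntn1-/- chimeras and to 14068, 9388, 18601 and 20128 in the WT chimeras. Trf, with 4260 to 11563 normalized reads, made up a large part of these sums. Alb had another order, with 1102, 77.0, 321 and 226 in Ntn1-/- A to D. In WT A to D it had 4246, 114, 4242 and 4640. All 10 liver markers had lower estimates in the Ntn1-/- chimeras (median -2.63), with Trf nearest to none at -0.38. Of them 7 were at an unadjusted p under 0.05 by limma, with 0 called by limma and 6 by DESeq2, beside the same shares of all genes. Of the 8 thymocyte markers, Rag1, Rag2 and Dntt were at 0 in at least 1 library, and the sums ran from 219 to 675 in the Ntn1-/- chimeras and from 242 to 435 in the WT chimeras. The zeros all fell in WT libraries: Rag1 in B, C and D, Rag2 in C and D, and Dntt in B and C. In WT A, Rag1 had 31.1 and Dntt 73.7 normalized reads. In Ntn1-/- A to D, Rag1 had 7.48, 58.0, 68.8 and 26.9 and Dntt had 8.31, 87.5, 78.7 and 23.4. Their log2 differences were 3.72 (SE 1.21) and 3.32 (SE 1.41), from low counts, with adjusted p = 0.2531 and 0.308 by limma. Rag1 reached the mean of 10 normalized reads needed for the test through its Ntn1-/- values. The other thymocyte markers tested had log2 differences of 0.08 (Cd8b1), 0.22 (Cd8a) and 0.11 (Cd4). The part of nerve, liver or thymus in the levels of the smooth muscle genes was not tested.

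Genes around the contractile apparatus were examined as lists, beside 47.6% of all genes with a higher estimate in the Ntn1-/- chimeras. Of the 17 tested SRF cofactors and regulators of smooth muscle genes, 13 had higher and 4 lower estimates, with a median of 0.08. Mkl2 (MRTF-B), an actin-regulated SRF coactivator, had 912, 850, 783 and 871 normalized reads in Ntn1-/- A to D and 676, 724, 722 and 599 in WT A to D. The groups did not overlap (log2 difference 0.33, SE 0.09, adjusted p = 0.2478 by limma and 0.0265 by DESeq2). Mkl1 (MRTF-A), its paralog, had 931, 829, 810 and 966 in the Ntn1-/- chimeras and 1111, 1051, 1094 and 1008 in the WT chimeras. Here all WT values were the higher ones (log2 difference -0.27, SE 0.08, adjusted p = 0.2485 by limma and 0.06 by DESeq2). Mef2a, a MADS-box factor related to SRF, was at 0.83 (adjusted p = 0.2865 by limma) and Tead1, a partner of the YAP coactivator, at 0.37 (0.2924). None of these 4 was called by limma or edgeR. They were named because they had the smallest p of the 17 genes. In 2 of the 17 the groups did not overlap, beside 10.5% of all genes. DESeq2 called 1 of the 17, beside 3.72% of all genes.

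Further paralogs of the members (18 genes) had 7 higher and 11 lower estimates and a median of -0.03. The counts of this list and of those below also stand beside 47.6% of all genes with a higher estimate. All 4 Ntn1-/- values of Tln2, a paralog of talin 1, lay above the 4 WT values (log2 difference 0.29, adjusted p = 0.2492 by limma), and all 4 of Myl12b, a regulatory light chain of non-muscle myosin, lay below them (-0.15, adjusted p = 0.3193). Tln2 and Myl12b were the 2 of the 18 genes whose groups did not overlap, beside 10.5% of all genes. The tropomyosin Tpm3 was at -0.21 and the PDZ-LIM gene Pdlim2 at -0.14. Of 22 focal adhesion partners, 17 estimates were higher, with a median of 0.10, among them the caveolar coat gene Cav1 (0.18) and the adaptor Lims1 (0.13), while the muscle integrin Itga7 was at -0.22. Of 12 genes linked to the synthetic state of smooth muscle, 1 estimate was higher and 11 were lower, with a median of -0.36. Spp1 (osteopontin), which macrophages also make, was at -1.51 (SE 0.55, adjusted p = 0.2655) with overlapping groups, Sox9, a chondrogenic factor, at -0.45 (0.3168), the surface gene Ly6a at -0.39 (0.4175) and the calcification inhibitor Mgp at -0.38 (0.4142). No gene of these 3 lists was called by limma, edgeR or DESeq2.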

How the data were processed

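The authors aligned single-end reads of 50 nucleotides to mm9 with TopHat2 2.0.9, counted reads per gene with featureCounts and divided the counts by DESeq2 size factors, per the labels and the study's methods; the deposited signal is this normalized read count. The annotation, the strand setting and other versions are not given in the sources used here. The deposited log2 fold changes, p-values and pathway tables hold the authors' own DESeq2 comparison and were not used. Whole reads came out for 100.0% of 187360 values (tolerance 0.001), and no libraries were duplicates.

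limma 3.58.1 (eBayes with a trend) was run on log2(value + 1) for 14931 genes with a mean of at least 10, all 8 libraries, no covariate, with Benjamini-Hochberg adjustment over all of them (threshold 0.05); log2 differences are on this scale. edgeR 4.0.16 and DESeq2 1.42.0 on recovered reads (R 4.3.3), other pseudocounts, no filter, TMM, voom, length and GC offsets, a replicate block and leaving out libraries were alternatives. The fits were tested on simulated data. Replicates are single mice, 4 a group. RPKM used exon lengths of an mm9 annotation (GENCODE vM1). Values by library were given for Acta2, Myh11, Tagln, Cnn1, Myocd, Srf, Des, Ldb3, Actg2 and Smtn, any member with p under 0.05 or groups that do not overlap, and up to 4 genes with the smallest p from each further list were named. One further list and 1 gene of another are not reported here. Members and lists were chosen with earlier results of these data known.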

Additional observations from a re-analysis of the deposited data

How the results depend on the processing

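Under 21 alternatives no smooth muscle gene was called. DESeq2 called 544 genes over all genes, and the smallest adjusted p of a member ran from 0.3649 (DESeq2) to 0.8464 (length and GC offset with replicate block). The number of members with higher estimates ran from 7 (without Ntn1-/- B) to 35 (without Ntn1-/- D) when 1 library was left out, with 31 without WT A and 11 without WT B, and the median from -0.19 to 0.22. Without both Ntn1-/- B and C it was 7, with a median of -0.22. Over these alternatives 30 of 35 members changed sign at least once, and 5 (Cald1, Ppp1r12a, Prkg1, Synpo2, Itga8) never did. No alternative changed the depth. Deviations of same-lettered libraries correlated at -0.008 (A), -0.304 (B), 0.151 (C) and -0.256 (D), and not every library correlated best with its own letter. These values showed no pairing by replicate letter but cannot exclude it, because all other differences between mice enter them too. With a replicate block 0 members were called; 18 were higher by limma (median 0.003) and by edgeR (0.0039), and 20 with the length and GC offset (0.0315).

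The log2 differences that changed sign were as follows. With edgeR (TMM) they were Smtn 0.022, Myh11 0.048, Myocd 0.18, with edgeR and DESeq2 size factors Smtn 0.022, Myh11 0.048, Myocd 0.18, and with DESeq2 Smtn 0.022, Myh11 0.048, Myocd 0.17. With the length and GC offset, with or without the replicate block, they were Tagln 0.066, Smtn 0.049, Tpm1 -0.066, Myl6 0.077, Myl9 0.049, Ppp1r14a 0.18, Ldb3 -0.067, Csrp1 0.059, Nexn -0.031, Flna -0.060, Sorbs2 -0.094, Srf 0.012. Without both Ntn1-/- B and C they were Actg2 -0.37, Tpm1 -0.22, Lmod1 -0.25, Mylk -0.048, Mrvi1 -0.054, Kcnmb1 -0.086, Ldb3 -0.14, Nexn -0.12, Actn1 -0.14, Flna -0.22, Aoc3 -0.046. The cause was not tested. With 1 library left out, the lowest and highest values were Acta2 -0.35 to 0.12, Actg2 -0.19 to 0.29, Tagln -0.20 to 0.16, Cnn1 -0.26 to 0.20, Smtn -0.23 to 0.22, Tpm1 -0.16 to 0.24, Tpm2 -0.33 to 0.12, Lmod1 -0.14 to 0.33, Myh11 -0.31 to 0.28, Myl6 -0.33 to 0.042, Myl9 -0.39 to 0.12, Mylk -0.036 to 0.43, Ppp1r14a -0.41 to 0.17, Mrvi1 -0.063 to 0.38, Kcnmb1 -0.087 to 0.39, Hspb6 -0.41 to 0.076, Des -0.20 to 0.056, Ldb3 -0.18 to 0.21, Pdlim3 -0.36 to 0.091, Pdlim7 -0.32 to 0.13, Csrp1 -0.20 to 0.14, Nexn -0.14 to 0.27, Actn1 -0.15 to 0.21, Vcl -0.013 to 0.31, Tln1 -0.18 to 0.078, Flna -0.20 to 0.26, Myocd -0.47 to 0.27, Srf -0.23 to 0.10.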
